A study of Mus musculus with 12 samples.

Results

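ATAC-seq uses a transposase that inserts sequencing adapters where DNA is accessible, so that stretches covered by many reads mark open chromatin. The regions described here are those open in control hepatocytes at baseline. The study compared hepatocytes of 12 mice in 4 groups of 3 mice each. The groups were Alb-Cre/FBXL5F/F mice on a 0.1% DDC diet, FBXL5F/F mice on that diet, Alb-Cre/FBXL5F/F mice on a standard diet and FBXL5F/F mice on a standard diet, with 2 weeks of feeding. Every mouse carried floxed Fbxl5 alleles, a gene for a ubiquitin ligase subunit that controls iron regulation in cells, and the Cre of the deleted mice was driven by the albumin promoter. Only the 3 FBXL5F/F mice on the standard diet, which carried the floxed alleles without Cre, are described below, each as its own library (libraries 1 to 3). No source used here gives age, sex or strain. The hepatocytes came from collagenase perfusion of the liver, so other liver cells may be among them.

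The regions were chosen in the deposited peak lists, which hold 1 line per summit. Lines with the same chromosome, start and end were joined into 1 peak, chromosomes 1 to 19 and X were kept, and peaks of the 3 lists that overlapped by at least 1 bp were merged. The lists held 151794, 145293 and 137004 peaks in libraries 1, 2 and 3. They formed 187247 regions, of which 89427 (47.8%) had a peak in all 3 lists and are called common regions here. Over all 12 libraries of the study, 555632 regions had a peak in at least 1 list. The common regions held 67.6%, 71.3% and 74.9% of the peaks of libraries 1, 2 and 3.

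In liver, genes are read from promoters at their starts and from enhancers that can lie far away, and both lose their nucleosomes when transcription factors bind. Hepatocyte identity is kept by a network of such factors, among them HNF4A, the FOXA proteins and C/EBP alpha, which bind near genes for plasma proteins, bile acid and glucose metabolism and detoxification. Promoters of genes used by every cell are also open in hepatocytes, mostly at CpG-rich sequence. An ATAC-seq signal by itself does not tell a promoter from an enhancer or from a site bound by an insulator protein.

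Promoter sequences of 7 genes are printed, 4 for the strength of their regions and 3 because the genes are known hepatocyte genes. Each is the 250 bases before a RefSeq start of the gene (GRCm38.p6, the assembly of mm10), read 5′ to 3′ on the gene's strand. RefSeq promoter windows were at hand for 17273 of the 21627 protein-coding genes (79.9%), and these windows also supplied the strand. Capitals mark matches on either strand to the letters searched, of which those found here were CCAAT (the CCAAT box bound by NF-Y), GGGCGG (the GC box of Sp and KLF factors) and CCGGAAG (ETS factors). The first 4 lie at the strongest common regions that overlapped a promoter window. They belong to Cep128 (a centriole protein, chr12:91384410-91384659, minus strand), Hltf (a helicase-like DNA repair factor, chr3:20057561-20057810, plus strand), Xrcc1 (a scaffold of single-strand break repair, chr7:24546449-24546698, plus strand) and Mcm3 (a subunit of the replicative helicase, chr1:20820313-20820562, minus strand).
Cep128: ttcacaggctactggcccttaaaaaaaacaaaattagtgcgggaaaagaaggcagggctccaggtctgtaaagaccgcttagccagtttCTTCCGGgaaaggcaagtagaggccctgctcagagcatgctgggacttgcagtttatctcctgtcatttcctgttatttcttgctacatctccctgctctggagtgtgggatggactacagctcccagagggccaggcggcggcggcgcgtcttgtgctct
Hltf: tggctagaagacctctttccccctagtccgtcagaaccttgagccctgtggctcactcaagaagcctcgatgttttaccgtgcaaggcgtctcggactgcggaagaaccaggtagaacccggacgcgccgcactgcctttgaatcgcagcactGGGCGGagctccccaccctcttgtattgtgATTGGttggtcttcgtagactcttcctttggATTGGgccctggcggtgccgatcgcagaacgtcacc
Xrcc1: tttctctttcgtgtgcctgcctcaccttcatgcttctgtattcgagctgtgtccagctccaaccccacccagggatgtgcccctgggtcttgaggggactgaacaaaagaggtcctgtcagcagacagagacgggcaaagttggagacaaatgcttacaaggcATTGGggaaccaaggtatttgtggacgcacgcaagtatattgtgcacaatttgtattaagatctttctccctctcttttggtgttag
Mcm3: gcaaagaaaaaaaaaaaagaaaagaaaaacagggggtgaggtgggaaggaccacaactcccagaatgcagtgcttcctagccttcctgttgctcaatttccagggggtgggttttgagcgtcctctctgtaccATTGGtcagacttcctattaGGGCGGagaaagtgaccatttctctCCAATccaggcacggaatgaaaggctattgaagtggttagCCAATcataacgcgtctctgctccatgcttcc

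The other 3 belong to genes that hepatocytes are known for. They are Alb (albumin, chr5:90460620-90460869, plus strand), Apoa1 (the main protein of high-density lipoprotein, chr9:46228380-46228629, plus strand) and Hnf4a (the nuclear receptor of the hepatocyte network, chr2:163546905-163547154, plus strand). The Hnf4a stretch lies inside the span of the gene (chr2:163506811-163572907), before an internal start.
Alb: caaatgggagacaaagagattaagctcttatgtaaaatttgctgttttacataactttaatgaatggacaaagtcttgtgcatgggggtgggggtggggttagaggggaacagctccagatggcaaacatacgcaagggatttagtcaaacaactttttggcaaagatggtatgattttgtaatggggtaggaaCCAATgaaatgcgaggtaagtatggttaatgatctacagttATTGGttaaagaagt
Apoa1: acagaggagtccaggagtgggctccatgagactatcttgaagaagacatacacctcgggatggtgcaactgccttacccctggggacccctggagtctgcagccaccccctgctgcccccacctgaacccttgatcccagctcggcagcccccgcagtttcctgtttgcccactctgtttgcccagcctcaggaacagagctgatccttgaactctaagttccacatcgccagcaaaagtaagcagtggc
Hnf4a: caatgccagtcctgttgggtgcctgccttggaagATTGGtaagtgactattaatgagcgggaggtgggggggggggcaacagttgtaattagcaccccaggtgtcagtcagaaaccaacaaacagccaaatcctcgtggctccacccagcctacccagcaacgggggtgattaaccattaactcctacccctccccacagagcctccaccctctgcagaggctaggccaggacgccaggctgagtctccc

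Among the 4 strongest promoter regions, Mcm3 held 3 CCAAT matches and 1 GC box, Hltf held 2 CCAAT matches and 1 GC box, Xrcc1 held 1 CCAAT match and Cep128 held 1 ETS match. The Alb promoter held CCAAT matches that began 56 and 15 bases before the start. Hnf4a held 1 CCAAT match, 216 bases before its internal start, and none of the searched letters was found in the Apoa1 stretch. A match is a description of the letters and not a bound site.

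The strength of a region was ranked in each library by fold enrichment, the height of its summit over the background that the caller estimated in the same library, and the 3 ranks were averaged. Median fold enrichment of the common regions was 6.37, 6.74 and 6.65 in libraries 1, 2 and 3 (mean 6.59 ± 0.189, SD, n = 3). The lists give no read counts. The caller's fold enrichment and p-value together nevertheless fix the whole number of extended reads at a summit, here called the summit pileup, and the background in reads. These could be recovered for 100% of lines, with a relative tolerance of 2e-05 in the −log10 p. The median summit pileup of the common regions was 19, 20 and 19 reads, over a median background of 1.77, 1.71 and 1.67 reads. A pileup of 19 reads has an exact Poisson 95% interval of 11.4 to 29.7 reads, 65 reads one of 50.2 to 82.8 and 9 reads one of 4.12 to 17.1, and these cover counting error only. The order of the regions was alike in the 3 libraries. Spearman's rho between libraries was 0.873 to 0.878 for fold enrichment and 0.923 to 0.927 for summit pileup, across 89427 regions that are not independent of each other. The median SD of a region's log2 fold enrichment over the 3 libraries, each centred on its median, was 0.22. With 3 libraries and no group to compare with, no test was made, and differences between classes of regions are given beside the spread over libraries.

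Regions missing from a list were the weak ones. The best fold enrichment of a region in any list had a median of 7.84 for regions in all 3 lists, against 3.48 for the 26690 regions in 2 lists and 2.66 for the 71130 regions in 1 list. Part of that order is built in, since a best value over more lists is higher. From the 10th to the 90th percentile, the best fold enrichment ran from 3.82 to 16.6 in regions of all 3 lists, against 2.64 to 4.95 in regions of 2 lists and 2.11 to 3.59 in regions of 1 list. Between these percentiles, regions of all 3 lists and of 2 lists overlapped from 3.82 to 4.95, and regions of 2 lists and of 1 list from 2.64 to 3.59. Of the common regions 19.1% lay within 1 kb of an end of a protein-coding gene, against 10.3% of the regions in 2 lists and 9.47% of those in 1 list.

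The label of the cells was checked against marker genes, counting a gene's start as open when a common region lay within 1 kb of it and the strand was known. Starts were open for 17 of 18 hepatocyte transcription factor genes, 23 of 24 plasma protein genes and 21 of 22 genes of liver metabolism, and for 24 of 25 ubiquitous genes. Over all protein-coding genes of known strand, 10629 of 17273 starts (61.5%) were open. Lower shares were found for macrophage markers with 0 of 9 starts open, lymphocyte markers with 1 of 8, neuronal and muscle genes with 5 of 16, sinusoidal endothelial markers with 3 of 8 and stellate cell markers with 4 of 10. Cholangiocyte markers had 4 of 6 starts open, which is not below the share over all genes. Of 13 macrophage markers 7 had no common region assigned to them. These were Adgre1, which encodes F4/80, Clec4f, Vsig4, Cd5l, Lyz2, Tyrobp and Timd4. Of the lymphocyte markers Cd8a, Cd79a, Ms4a1, Ncr1 and Gzma were among those with none, and Ighm was not matched to a protein-coding gene. Cholangiocyte markers without a region were Krt19, the keratin of bile duct cells, and Cftr, a chloride channel. The sinusoidal endothelial genes Stab2 (a scavenger receptor) and Gata4, which the hepatocyte list also holds, had 15 and 14 regions. The part of other liver cells in these regions was not tested.

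The strongest region by fold enrichment was first in all 3 libraries. It lay at chr10:85025903-85026159, 7566 bp outside the span of Ric8b, a chaperone of G protein alpha subunits. Its fold enrichment was 44.7, 45.3 and 43.9 in libraries 1, 2 and 3 (44.7 ± 0.704, SD, n = 3), with summit pileups of 216, 213 and 209 reads. At 257 bp it was the narrowest of the 20 strongest regions, and its summit moved by 4 bp over the libraries. The next region, at chr1:132790923-132791354 and 49075 bp from Nfasc (neurofascin, an adhesion protein of axons), reached 39.6, 36.7 and 36.8. It ranked 2, 3 and 2. The remaining 18 of the 20 strongest regions lay closer together, between a fold enrichment of 27.7 and 35.0 in single libraries. Among them the regions in Stxbp4 and Magi2 were above those of Hltf, Otud1 and 1810024B03Rik in every library.

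**Figure D1:**
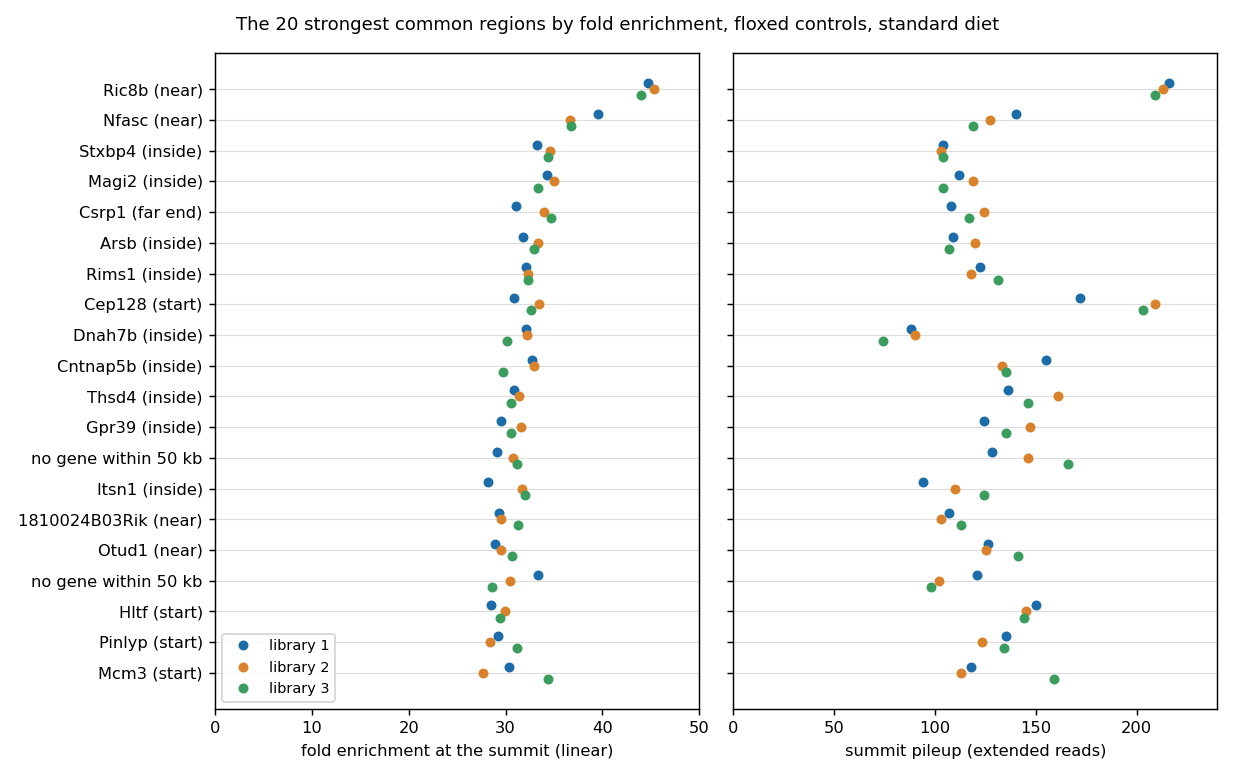
Fold enrichment (left, linear) and summit pileup in extended reads (right) of the 20 strongest common regions, from the strongest at the top, with 1 point per library. Labels give the assigned gene and the place of the region: start or far end of the gene, inside its span, or near it (outside the span, within 50 kb). The region near Ric8b stands apart at 43.9 to 45.3, and pileups of the 20 regions run from 74 to 216 reads.

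Of the 20 strongest regions 4 lay at a gene start, where 15.2% of all common regions and 27.1% of the strongest 1000 by fold enrichment were found. Of the others, 9 lay inside a gene more than 1 kb from any gene end, 4 outside genes within 50 kb of one, 2 with no protein-coding gene within 50 kb and 1 at a far end. The regions inside genes were in Stxbp4 (a syntaxin-binding protein; 33.2, 34.6 and 34.4), Magi2 (a junction scaffold; 34.3, 35.0 and 33.4), Arsb (the lysosomal arylsulfatase B; 31.8, 33.4 and 32.9) and Rims1 (a presynaptic scaffold; 32.1, 32.3 and 32.3). Their fold enrichments differed by less between libraries than each did from the region near Ric8b. Further ones were in Dnah7b (an axonemal dynein), Cntnap5b (a contactin-associated protein), Thsd4 (a matrix protein of microfibrils), Gpr39 (a zinc-sensing receptor) and Itsn1 (an endocytic scaffold). Several of these genes are known from neurons or cilia, and a position inside a gene does not say which gene a region acts on. Outside genes lay the regions near 1810024B03Rik and Otud1 (a deubiquitinase), at 29.3 to 31.3 and 28.9 to 30.7. The region at the far end of Csrp1 (a LIM-domain protein) began 600 bp outside the gene and reached 31.1, 33.9 and 34.7. Of the regions with no gene within 50 kb, chr14:114062585-114063056 reached 29.1, 30.8 and 31.2, and chr18:8966595-8967135 reached 33.4, 30.4 and 28.6. The 15 strongest regions more than 1 kb from any gene end or start were the same 15 regions that remain of these 20 once Csrp1 and the 4 gene starts are left out.

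At the gene starts, the region of Cep128 (chr12:91383957-91384728) reached 30.9, 33.4 and 32.6, with pileups of 172, 209 and 203 reads. The region of Hltf (chr3:20057398-20058246) reached 28.5, 29.9 and 29.4 and had 3 summits in each library. The region at chr7:24546634-24547276 reached 29.2, 28.3 and 31.2. It overlaps the start of Pinlyp, an inhibitor of phospholipase A2, and the end of the Xrcc1 stretch printed above. The region of Mcm3 (chr1:20819872-20820593) reached 30.3, 27.7 and 34.3 and ranked 15, 119 and 5, the widest scatter of ranks among the 20. These 4 regions were 643 to 849 bp wide, whereas the 2 strongest of all were 257 and 432 bp wide.

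Fold enrichment and summit pileup gave different leading regions. Between both orders Spearman's rho was 0.73 over the common regions, but the top 20 shared 2 regions (10.0%), those of Ric8b and Cep128, and the top 1000 shared 188 (18.8%). By pileup, the first region was the start of Rpgrip1l (a protein of the ciliary transition zone, chr8:91312942-91313851), with 193, 241 and 226 reads. It also overlaps an end of the span of Fto (chr8:91313367-91668433). It was followed by a region at an end of Gnai2 (a G protein alpha subunit) with 185, 228 and 237 reads. The third, at chr4:150871367-150872757 and 2478 bp from Errfi1 (a feedback inhibitor of the EGF receptor), had 199, 272 and 212 reads. Its fold enrichment was only 3.06, 3.65 and 3.37, because the background there was 64.4, 73.9 and 62.2 reads, and by fold enrichment it ranked 80894. Of the top 20 by pileup, the regions near Errfi1 and Ric8b and those inside Map3k13, a kinase, and Pex2, a peroxisome biogenesis factor, were more than 1 kb from any gene end, and the others were not.

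The background enters this difference by arithmetic. Backgrounds recovered from the lists were either 1 value per library (0.952, 0.896 and 0.877 reads, at 30.3%, 28.9% and 27.8% of lines) or whole multiples of 0.015 reads, in 100% of the other lines. That step equals a 150 bp extension over a window of 10000 bp, so the background at a summit counted the reads within about 10 kb around it, the open region's own reads included. Where many open stretches lie within 10 kb, fold enrichment is therefore low at a given height. Across common regions Spearman's rho with the background was 0.14 for the fold enrichment order and 0.75 for the pileup order.

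**Figure D2:**
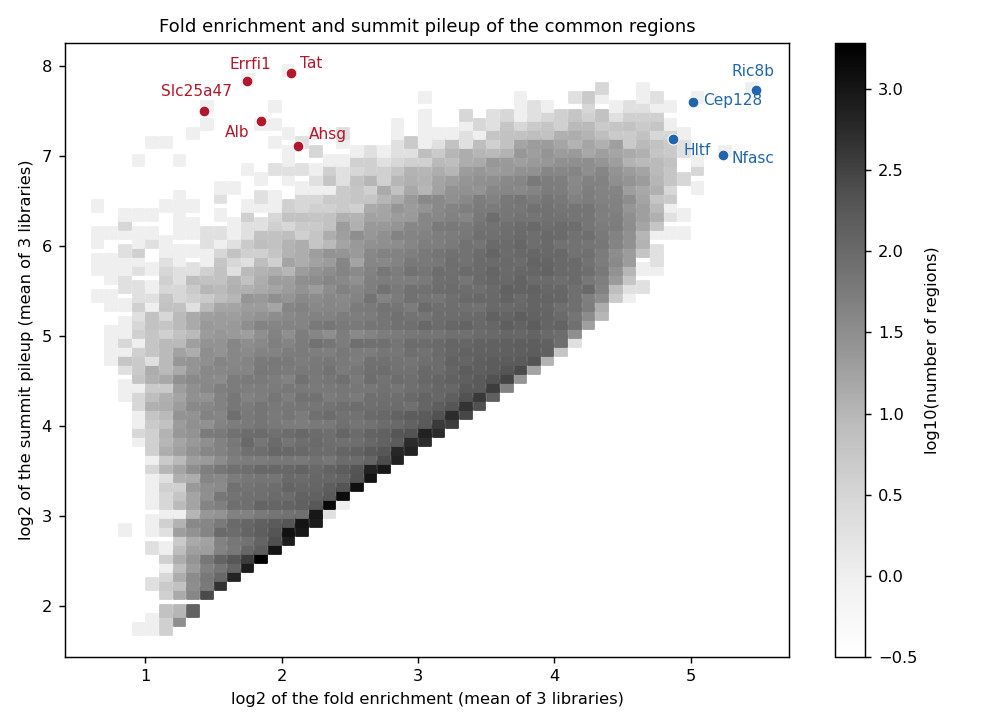
Each square counts common regions by log2 fold enrichment (x axis) and log2 summit pileup (y axis), both means of 3 libraries, with darker squares for more regions on a log10 scale. Blue points are regions named among the 20 strongest by fold enrichment, and red points are regions at Errfi1, Tat, Slc25a47, Alb and Ahsg, which lie as high in pileup and far to the left in fold enrichment.

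Some regions at genes of liver function were likewise high by pileup and low by fold enrichment, among them those at Slc25a47, Tat, Pck1 and Alb. The widest common region, chr12:108856542-108859840 (3299 bp), reached from the end of Slc25a47, a mitochondrial carrier found mainly in liver. It had pileups of 182, 195 and 168 reads over backgrounds of 69.7, 70.2 and 58.4 reads, hence fold enrichments of 2.59, 2.75 and 2.76. It ranked 52 by pileup and 87219 by fold enrichment. The region at the far end of Tat (tyrosine aminotransferase, chr8:109999788-110001572) had 266, 290 and 170 reads and ranked 32 by pileup and 67703 by fold enrichment. The region at the far end of Pck1 (the first committed enzyme of gluconeogenesis, chr2:173159325-173160995) had 207, 188 and 166 reads and ranked 55 against 71723. Library 3 was the lowest at all 3 regions. At Alb, the region that overlaps the gene's start (chr5:90460602-90461070) had 73, 54 and 64 reads. The region that overlaps its far end (chr5:90476436-90477764) had 179, 152 and 172 reads, more than the start in every library, at a fold enrichment of 3.62, 3.06 and 4.13.

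Over the gene lists both orders were compared as medians. The 189 regions of 30 plasma protein genes had a median percentile of 27.7 by fold enrichment and 74.0 by pileup, where all common regions have 50. Their median background was 7.68, 8.22 and 7.80 reads in libraries 1, 2 and 3, against 1.77, 1.71 and 1.67 over all common regions. The 263 regions of 29 liver metabolism genes had 23.2 and 68.7, and the 464 regions of 26 hepatocyte transcription factor genes 36.8 and 66.2. Ubiquitous genes, with 107 regions, had 51.9 by fold enrichment and 72.0 by pileup, over backgrounds of 4.10, 3.81 and 3.86 reads. In the strongest 10% by pileup were 22.2% of the plasma protein regions, 17.1% of the metabolism regions, 13.4% of the transcription factor regions and 21.5% of the ubiquitous regions. In the strongest 10% by fold enrichment were 3.70%, 2.66%, 3.02% and 10.3% of them, in the same order. The marker lists of other cell types had the opposite order, with a median percentile of 42.3 to 60.5 by fold enrichment and 31.0 to 46.9 by pileup, as had neuronal and muscle genes with 57.8 and 43.3. Regions of 1 gene share its surroundings and are not independent, so these medians carry no test.

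**Figure D3:**
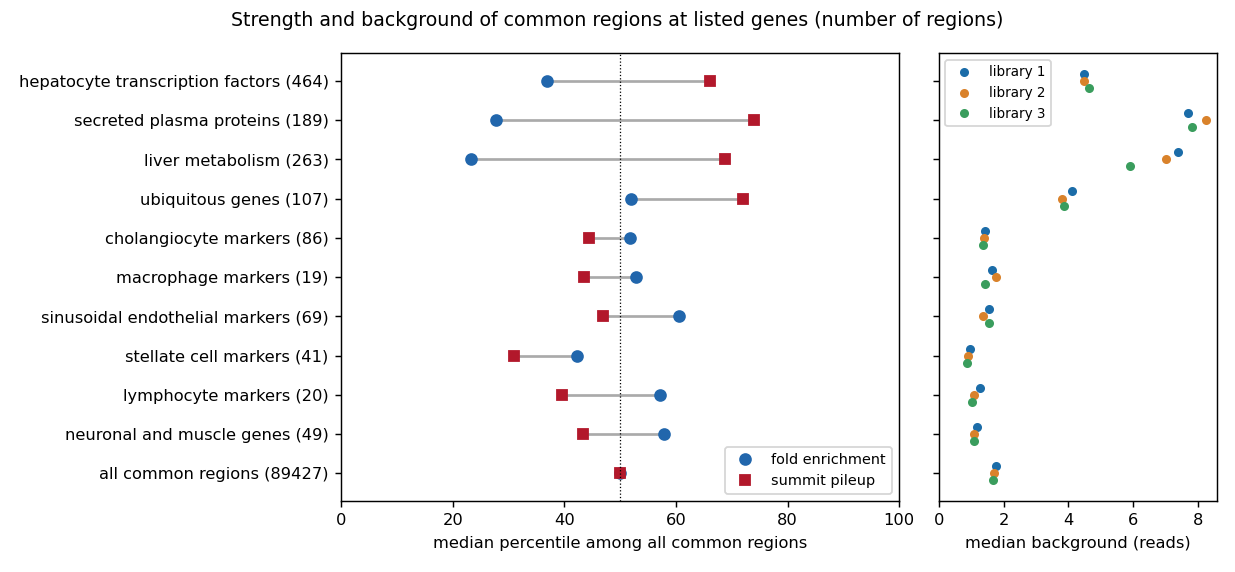
Left, the median percentile of the common regions at listed genes by fold enrichment (blue circles) and by summit pileup (red squares), with the number of regions in parentheses. Right, the median background in reads with 1 point per library. For the 3 hepatocyte lists fold enrichment lies below 50 and pileup above it, with backgrounds of 4.46 to 8.22 reads against 1.67 to 1.77 reads over all regions.

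Among hepatocyte transcription factor genes, regions high by fold enrichment lay at Onecut2 (20.04, 23.7 and 18.6), at Nr1h4 (the bile acid receptor FXR; 18.9, 21.8 and 20.03) and inside Nfia (20.2, 20.8 and 15.8). For 12 of 18 genes of the list with promoter windows, the best region by fold enrichment lay outside the gene, against 23.4% of all genes. Ordered by pileup, the best region lay outside for 6 of the 18, against 18.8% of all genes, and inside for 9. The 26 genes of the list had 464 regions, whereas the median over all genes with a region was 2. The part of this number in the contrast was not tested. Nfia with 55 regions and Nfib with 40, both of the nuclear factor I family, had the most. By pileup the first was the region at the far end of Nr0b2 (the corepressor SHP), with 174, 173 and 194 reads. It was followed by a region near Klf15 (a fasting-regulated factor) with 141, 165 and 150 reads. The region with the highest pileup at Hnf4a was inside the gene, 6041 bp from the nearest gene start, with 128, 124 and 128 reads. The region at the printed Hnf4a promoter (chr2:163546719-163547486), which also lies inside the gene span, had 125, 98 and 120 reads. That was fewer than the region of highest pileup in every library.

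Among plasma protein genes, the best by fold enrichment were regions outside Afp (alpha-fetoprotein; 16.3, 23.3 and 19.9), Apob (apolipoprotein B; 21.9, 19.3 and 17.4) and Alb (18.1, 18.6 and 19.4), and a region inside F9 (coagulation factor IX; 14.1, 16.6 and 14.2). The Afp region lay between Afp and Alb, which are neighbours on chromosome 5. Ttr (transthyretin) and Apob had 16 regions each. The region over Ahsg (fetuin A, chr16:22898243-22901304), 3062 bp wide, had 148, 142 and 125 reads. The Apoa1 region (chr9:46228496-46229019) had 82, 110 and 90 reads at a fold enrichment of only 2.90, 2.79 and 2.82.

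Among metabolic genes, regions high by fold enrichment lay outside Pck1 (16.7, 20.3 and 22.6), Fbp1 (fructose bisphosphatase; 16.2, 20.5 and 18.1) and Slco1b2 (a bile acid and drug uptake carrier; 14.3, 16.2 and 16.2). The Fbp1 region was also high by pileup, with 114, 145 and 142 reads. Cps1 (the entry enzyme of the urea cycle) had the most, with 28 regions. Only Ugt1a1 had none assigned, which shares its span with other genes of its cluster, so that a region there can go to another gene. Among ubiquitous genes the best were at Psma1 (23.6, 23.9 and 25.4), Ywhaz (17.997, 18.4 and 20.6), Rplp0 (15.8, 19.9 and 21.2) and Rab7 (15.1, 18.4 and 19.9), and Eef2 alone had none assigned. Rab7 had 13 regions, and Ywhaz and Actb had 11 each.

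Some markers of other cell types also lay near strong regions. A region inside Pkhd1 (fibrocystin of bile duct cilia) reached 25.2, 28.3 and 28.0 with 142, 152 and 165 reads, and regions at Slc5a1 and Ehf were also near the top of the cholangiocyte list. For macrophages the best were at Ptprc (17.7, 19.9 and 17.99), Spi1 (18.1, 13.1 and 16.3), Itgam and Csf1r, with 3, 5, 4 and 5 regions. Erg (19.7, 24.5 and 21.8), Stab2, Pecam1 and Stab1 led the endothelial list. Ngfr (11.3, 15.3 and 10.1), Lhx2, Lrat and Reln led the stellate list, in which Dcn had no region. Tcf7, Pax5, Cd4 and Bcl11b led the lymphocyte list. Olig2, Myh1, Nkx2-5 and Neurod1 led the neuronal and muscle genes, where Myod1, Myh7 and Actn2 had none. The regions with the highest pileup in the macrophage, stellate and lymphocyte lists reached at most 61, 65 and 66 reads in a library.

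Over all genes, the region with the highest pileup lay at the gene's own start for 48.7% of 13116 genes with known strand and a region. Among the listed genes this was so for 12 of 24 plasma protein genes, 6 of 21 metabolic genes, 2 of 18 hepatocyte transcription factor genes and 18 of 24 ubiquitous genes. It lay at the far end for 3.86% of all genes, and for 3, 4, 1 and 0 genes of those lists. By fold enrichment, the strongest region lay at the start for 40.9% of all genes, and for 11, 7, 1 and 15 genes of the lists. The number of regions per gene differed between these lists and was not matched.

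The place of common regions changed with strength. A region was assigned to the shortest protein-coding gene it overlaps, otherwise to the nearest within 50 kb. Of the common regions, 13553 (15.2%) lay within 1 kb of a gene start, 2282 (2.55%) at a far end, 3236 (3.62%) at an end of a gene of unknown strand, 39396 (44.1%) elsewhere inside genes, 21058 (23.5%) outside within 50 kb and 9902 (11.1%) farther away. Alternative starts in the promoter windows count as gene starts here, so these classes at gene ends hold more than the 19.1% given above for ends of the gene spans. Counting every overlap with a gene, 62.7% of common regions touched a protein-coding gene. Exons and introns were not told apart.

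Gene starts were higher, wider and had more summits than other places. Median summit pileup at gene starts was 45, 46 and 48 reads in libraries 1, 2 and 3 (46.3 ± 1.53, SD, n = 3), against 17 reads in every library inside genes and 14, 15 and 14 reads at regions without a gene. Median fold enrichment was 8.93, 9.29 and 9.69 at starts (9.30 ± 0.378), against 5.85 ± 0.203 inside genes and 6.66 ± 0.176 without a gene. Far ends of genes had a median of 19, 20 and 19 reads, and their median fold enrichment of 5.47 ± 0.146 was the lowest of the places compared. The median width was 783 bp at gene starts, 458 bp at far ends, 426 bp inside genes and 438 bp without a gene. More than 1 summit in a library was found at 71.7% of gene starts, against 35.0% of regions inside genes.

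In the strongest 10% by pileup 43.8% of regions were at gene starts, against 4.52% in the weakest 10%. By fold enrichment these shares were 27.8% and 12.8%. The share of gene starts by fold enrichment was lowest, at 8.43%, before the weakest 10% were reached. Regions without a gene took 5.24% of the strongest 10% by pileup and 15.6% of the weakest, but 11.7% and 7.53% by fold enrichment. Of the 1000 strongest regions, 31.4% by fold enrichment and 62.5% by pileup lay within 1 kb of an end of a gene span, against 19.1% of all common regions.

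**Figure D4:**
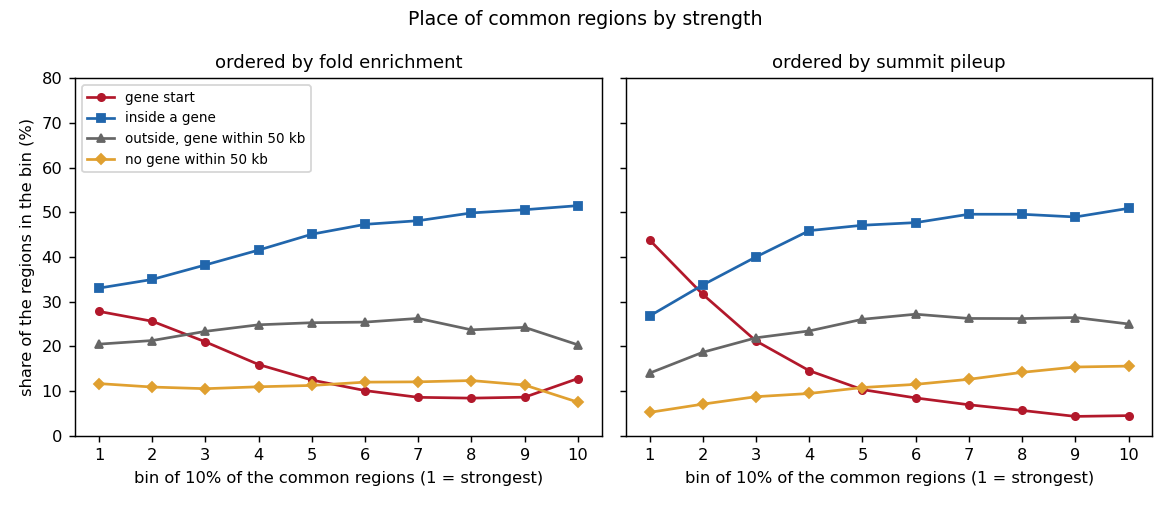
Share (%) of regions at a gene start, inside a gene, outside with a gene within 50 kb and without a gene, in each bin of 10% of the common regions from the strongest (1) to the weakest (10), ordered by fold enrichment on the left and by summit pileup on the right. Gene starts make up 27.8% of the strongest bin on the left and 43.8% on the right. Regions at gene ends other than starts are not drawn.

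Open and closed promoter windows differed in their letters. Of 21019 RefSeq windows of 300 bases (250 before to 50 after a start), 13.7% overlapped a common region of the strongest 10% by fold enrichment, 42.1% another common region, 4.17% a region of 1 or 2 lists and 39.99% no listed peak. In that order the median ratio of observed to expected CpG was 0.776, 0.776, 0.484 and 0.216, and the median GC content 60.0%, 62.7%, 57.7% and 48.3%. CCGGAAG, the ETS letters of the Cep128 promoter, occurred in 27.6%, 15.2%, 3.65% and 3.43% of windows, and in 11.7% of all. So the windows at the strongest regions held it more often than those at other common regions, whose median CpG ratio was equal. Windows were not matched on CpG or GC content, and the part of these in the difference was not tested. CCAAT occurred in 50.7%, 34.2%, 35.6% and 39.1%, and in 38.5% of all windows. GGGCGG occurred in 63.5%, 68.2%, 46.5% and 18.2%, and in 46.6% of all windows. TATAAA, the core of the TATA box, had the opposite order with 5.49%, 6.603%, 10.05% and 21.8%, and 12.7% of all windows.

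Letters of FOXA and HNF4, both liver factors, were not more frequent in windows of the strongest regions than in windows without a peak. Each factor was searched as a single exact string, so these shares cannot tell whether its sites are more frequent in open windows. TGTTTAC (FOXA) occurred in 2.47%, 2.68%, 3.31% and 3.56%, and CAAAGTCCA (HNF4) in 0.347%, 0.485%, 0.457% and 0.464% of windows. In all windows these shares were 3.03% and 0.457%. TTGCGCAA (C/EBP), at 0.313%, 0.305%, 0.342% and 0.0952%, was rarest in windows without a peak. The classes held 2878, 8859, 876 and 8406 windows, so shares as small as those of HNF4 and C/EBP rest on few windows. Of the other letters searched, TGAGTCA (AP-1) occurred in 2.71%, 3.45%, 5.71% and 6.55%, CACGTG (E-box) in 7.96%, 11.2%, 8.11% and 4.37%, TGACGTCA (CREB and ATF) in 2.57%, 3.43%, 1.83% and 0.964%, and AAGATGGC (YY1) in 4.83%, 4.29%, 0.913% and 1.39%. In all windows these shares were 4.69%, 7.91%, 2.26% and 3.06%. All were searched on both strands as exact letters, and no motif contains another. AT-rich letters are rarer where CpG is frequent. The letters TTGCGCAA, CACGTG and TGACGTCA hold a CG, and windows without a peak had the lowest CpG ratio. These shares carry no test, and the part of CpG content in them was not tested.

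Common regions were narrow. They covered 48.2 Mb in all, with a median width of 462 bp (quartiles 314 and 681 bp) and a range from 150 to 3299 bp, and 59 regions reached 2000 bp. These are widths of peaks merged over the lists. The single peaks inside common regions had median widths of 320, 312 and 310 bp in libraries 1, 2 and 3. Stronger regions were wider, with a Spearman's rho with width of 0.65 for the order by fold enrichment and 0.60 for that by pileup. The 5 widest regions were also the 5 with most summits. Besides those of Slc25a47 (9, 9 and 8 summits) and Ahsg (8, 10 and 8), they lay 1029 bp from Vmp1 (an autophagy protein; 2710 bp wide), 253 bp from Sdc4 (the proteoglycan syndecan-4; 2696 bp) and at an end of Serpina3k (a plasma serpin; 2642 bp). None of the 5 lay within 1 kb of a known gene start. Fold enrichment at Vmp1, Sdc4 and Serpina3k was low, from 2.77 to 4.99. The next widest included the start of Sp3, a GC-box factor, 2551 bp wide.

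Peaks with several summits had them at a similar distance in all 3 libraries. In peaks of common regions, neighbouring summits were a median of 255, 256 and 258 bp apart in libraries 1, 2 and 3 (256 ± 1.53, SD, n = 3), with quartiles of 216 to 219 bp and 316 to 318 bp. The fullest bin of 20 bp ran from 220 to 240 bp in every library. Distances under 150 bp, the extension length, made up 2.55% to 2.77%, and distances over 400 bp 9.86% to 10.3%. Of the peaks in common regions 81.5 ± 0.973% had 1 summit, 13.1 ± 0.533% had 2 and 5.37 ± 0.442% had 3 or more. The spacing was 261 to 263 bp at gene starts and 249 to 253 bp inside genes, so every library had the longer spacing at starts. The caller smooths reads by their extension, and the data do not tell a nucleosome between summits from other causes of separate summits. The strongest summit of a region moved by a median of 32 bp over the 3 libraries, and in 69.0% of regions by 50 bp or less. It moved by 28 bp at gene starts and 33 bp inside genes.

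**Figure D5:**
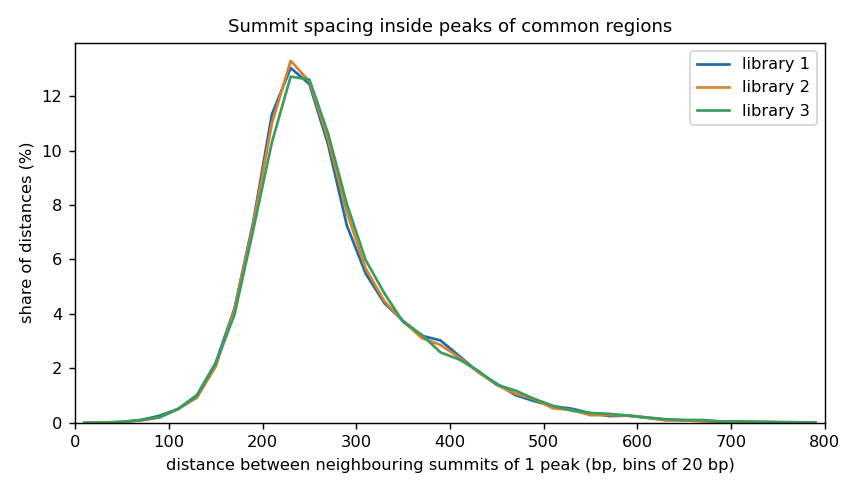
Share (%) of distances between neighbouring summits of 1 peak in common regions, in bins of 20 bp, with 1 line per library. All 3 lines are highest between 220 and 240 bp and have a longer tail to the right.

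Of 21627 protein-coding genes 16467 (76.1%) had at least 1 common region assigned, with a median of 2 among them, and 3927 had just 1. The 15 genes with most regions had long spans. Arid1b (a subunit of the SWI/SNF remodeler) and Foxp1 (a forkhead repressor) had 69 each, Zbtb20 (a repressor of Afp in liver) 68, Gse1 66, Rora (a nuclear receptor of the circadian clock) 65 and Prkce (protein kinase C epsilon) 62. Lpp and Magi1 had 60, Arhgap26, Foxn3 and Pde4d (a cyclic AMP phosphodiesterase) 57, Nav2 and Ptprg 56, Nfia 55 and Sox5 53. The spans ran from 353 to 1302 kb with a median of 608 kb, against a median of 17.3 kb over all protein-coding genes. Over genes Spearman's rho between span and number of regions was 0.55. Their regions were not strong as a rule, since the median percentile by fold enrichment ran from 33.4 at Arid1b to 55.4 at Pde4d. The 419 genes with at least 20 regions held 13.3% of all common regions.

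Per 100 kb, and among genes with at least 5 regions inside the span, other genes led. Hjv (hemojuvelin, the coreceptor through which hepatocytes set hepcidin) had 5 regions in 4.05 kb, or 123 per 100 kb. Slc29a1 (a nucleoside carrier) had 12 in 14.4 kb, Tst (thiosulfate sulfurtransferase) 5 in 6.31 kb, Mycl (a MYC family factor) 5 in 6.90 kb and Cpn2 (a plasma carboxypeptidase subunit) 8 in 11.2 kb. Median backgrounds of their regions were 6.22 to 10.8 reads, and their median percentile was 1.89 to 41.6 by fold enrichment and 63.0 to 75.7 by pileup. None of the 15 genes with most regions was among the 15 with most per 100 kb.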

How the data were processed

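Per the labels, hepatocyte nuclei were transposed, and each mouse gave 1 library. The submitters' processing notes name the build mm10 and, without versions, MACS2, deepTools, Picard, SAMtools, fastp, bedtools and Bowtie2. Steps not given in the sources used here include whether reads were shifted for the transposase. The authors deposited 1 peak list per library, with no control library among the files. From the values, the deposited fold enrichment (a ratio) is the summit height plus 1 over the background plus 1, and the deposited −log10 p is a Poisson tail with a p-value threshold of 0.05. The deposited −log10 q served only as an alternative filter. The score in the deposited lists is not used here, and the deposited summit offset gives the spacing.

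The regions, gene lists and questions were chosen with earlier results of these data known. Coordinates are 1-based. A region took in each library the fold enrichment and background of its best summit by fold, and its highest pileup. Pileup and background were recovered by trying whole pileups for each line, and 100% of 19848 simulated peaks were recovered exactly. Genes came from the RefSeq table of GRCm38.p6. Genes were named by rank: the 20 strongest regions, the 15 strongest away from gene ends, the 5 widest, the 5 with most summits, the 15 genes with most regions, the 5 densest, and for each list the 4 best, the 2 with most regions and those without one. Ranking by pileup, and genes named from it, were added after seeing the data. Some genes named by these ranks are not reported here. No group was compared and no test was made. The library totals are not in the lists, so depth is known only through pileup and background. Per the labels the 3 libraries are separate mice. The scripts ran on pandas 2.3.3, scipy 1.17.1, matplotlib 3.10.9, numpy 2.4.6 and Python 3.11.15.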

Additional observations from a re-analysis of the deposited data

Results flagged for a closer look

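Peaks outside chromosomes 1 to 19 and X entered no result. Libraries 1, 2 and 3 listed 42, 37 and 30 peaks on chromosome Y, with a median fold enrichment of 3.59, 3.69 and 3.73 there and a highest of 17.1, 17.7 and 17.1. They listed 330, 303 and 239 peaks on unplaced or unlocalised sequences of the assembly, with a median of 3.04, 3.16 and 3.12 and a highest of 35.6, 29.0 and 34.7. The most extreme −log10 p of every list, 1592, 1605 and 1812, was on an unplaced sequence, where the fold enrichment was 18.9, 19.4 and 20.5. On chromosomes 1 to 19 and X the highest −log10 p was 289, 287 and 278.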

How the results depend on the processing

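Alternatives were set beside the 89427 common regions, and shares, medians and correlations were called moved when they changed by more than 1 SD over the libraries. That SD was taken from the single peaks of each list that lie in common regions, and for the correlation from the pairs of libraries. It is thus not the spread of the merged regions themselves. For width, the single peaks had medians of 320, 312 and 310 bp in libraries 1, 2 and 3, against 462 bp for common regions. The SD was small (0.220 percentage points for the share at gene ends, for example). Counts of regions and genes were judged by a looser rule, their ratio to the main count. By it, 15 of the 20 named regions still counted as not moved. Of 86 values in all, 43 moved and 43 did not. A −log10 q of at least 5 left 53136 common regions with 24.6% at gene ends, 64.7% inside genes, 10.1% without a gene, a median width of 580 bp, a summit spacing of 259 bp and a mean correlation of 0.863. A −log10 q of at least 2 left 71616 common regions and gave 21.1%, 63.3%, 10.7%, 509 bp and a correlation of 0.873. With 50% reciprocal overlap the share at gene ends was 19.4%, that without a gene 10.96%, the width 357 bp and the correlation 0.882. With equal list lengths the share inside genes was 62.5%, that without a gene 11.3%, the width 469 bp and the correlation 0.871.

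Gene ends within 500 bp and 2 kb took 15.6% and 24.0% of common regions, and ends of all annotated genes 25.2% of them and 36.0% of the strongest 1000. Ranking by −log10 p put 58.0% of the strongest 1000 at gene ends, kept 2 of the 20 named regions and gave a correlation of 0.890. Ranking by pileup gave 62.5%, 2 and 0.925. Ranking genes per 100 kb kept 0 of the 15 genes.

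Leaving out 1 library and taking regions of both others gave 99788 to 102364 regions, 18.4% to 18.6% at gene ends, 62.3% to 62.8% inside genes, 10.99% to 11.4% without a gene, widths of 385 to 393 bp, spacings of 256 to 257 bp, 29.4% to 33.0% of the strongest 1000 at gene ends and correlations of 0.872 to 0.877. They kept 15 to 16 of the 20 regions and 13 of the 15 genes.

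The worst of 3 ranks gives no correlation between libraries and was not run for it. No paired analysis was possible because no groups were compared and no result comes from a test. Low read numbers limit the order among regions near the median, where a pileup of 19 reads has a counting interval of 11.4 to 29.7 reads.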

Other observations

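The 3 libraries had a lower summit pileup on the X chromosome, with a median of 13 reads in each, against medians of 18 to 21 reads on single autosomes. The median background of X regions was 0.952 and 0.896 reads in libraries 1 and 2, against 1.60 to 2.08 and 1.53 to 2.01 reads on autosomes, and in library 3 it was likewise below that of every autosome. The medians of libraries 1 and 2 equal the single background value of each library given above. In library 3 the median of 0.900 was close to its single value of 0.877. These medians thus do not show the local reads around X regions. The median fold enrichment of X regions was 6.15, 6.33 and 6.37, against 6.18 to 6.66, 6.52 to 6.86 and 6.51 to 6.83 on autosomes. Common regions numbered 1.90 per protein-coding gene on X, against 2.63 to 5.68 on autosomes. Pileup and background were thus both lower on X, and the fold enrichment was just below the autosomal range in each library.

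Of the 15 common regions with the highest background, 5 were assigned to Alb, 4 to Errfi1, 2 to Tat and 1 each to Slc25a47 and Pck1, and the other 2 lay near Frmd8 on chromosome 19.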
